A study of Mus musculus with 12 samples.

Results

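Transcripts of nitric oxide and cGMP signalling were followed in the striatum of wild-type mouse embryos and of embryos carrying a Nestin-Cre deletion of the transcription factor gene Foxp1. The 8 genes were chosen by name for their place in the pathway. They were proposed with the cKO minus WT differences of these same arrays already known. Those differences, and whether a member passed the threshold set over all probe sets, are therefore given as a description and not as a test. All 8 were present among 25428 probe sets, 1 probe set each: Nos1, Gucy1a1, Gucy1a2, Gucy1b1, Prkg1, Prkg2, Pde5a and Pde9a. Gucy1a1 and Gucy1b1 have also been called Gucy1a3 and Gucy1b3.

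Neuronal nitric oxide synthase, the product of Nos1, makes nitric oxide from arginine when calcium rises. The gas diffuses to neighbouring cells and binds the haem of soluble guanylyl cyclase, a heterodimer of an alpha subunit (Gucy1a1 or Gucy1a2) and the beta subunit Gucy1b1, which then makes cGMP. The cGMP-dependent protein kinases (Prkg1 and Prkg2) carry the signal further, and phosphodiesterases such as Pde5a and Pde9a end it by hydrolysing cGMP. In the adult striatum the synthase is confined to a sparse class of interneurons that also make somatostatin and neuropeptide Y, whereas the cyclase is abundant in the projection neurons that receive the signal.

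The striata of both hemispheres were taken at embryonic day 18.5 from 6 wild-type embryos (WT) and 6 embryos labelled Nestin-Cre (Foxp1-/-), called cKO, all on the C57BL/6J background, and total RNA of each embryo went onto 1 array with a single biotin label. Nestin drives Cre in neural progenitors, so the cells derived from them, neurons and glia alike, are expected to recombine, while blood vessels and blood are not. The labels do not give the deleted part of Foxp1, whether the WT embryos carried Cre or which embryos were littermates. The titles call the samples of a group biological replicates. Values are RMA expression on the log2 scale, where a difference of 1 is a doubling.

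Foxp1 itself read 10.89 to 11.39 on the WT arrays and 10.14 to 10.36 on the cKO arrays, with no overlap, a fall of 0.91 ± 0.07 (SE) log2 units or 1.88-fold. Signal of its probe set therefore remained on the cKO arrays, well above the median of all values, and whether the probes lie in the deleted part is not given in the sources used here. Every array had a median of 5.71, and pairs of arrays correlated between 0.992 and 0.998. The array of cKO replicate 1 stood apart in its number format: 9.25% of its values lay on a regular grid of binary fractions that held 100% of the values of each other array. On it Ttr, a choroid plexus gene, read 9.96 against 5.39 to 5.57 in WT, while Folr1 at 5.70 (WT 5.70 to 5.76) and Kl at 5.58 (WT 5.52 to 5.57), other markers of that tissue, showed no such rise. The main results are therefore also given without it. Of 13 measured projection neuron markers all lay more than 1 log2 unit above the median of all values. The WT means were 11.40 for Gad2, which makes GABA, 11.51 for Ebf1 and 10.82 for Bcl11b, both transcription factor genes of these neurons, and 6.81 for the dopamine receptor gene Drd1.

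Gucy1a1 and Gucy1b1, on which the results turn, are adjacent protein-coding genes on mouse chromosome 3, read in the same direction. Their promoters are shown because both subunits enter 1 enzyme and their values were lower side by side. The windows span 250 bases before to 50 after each annotated start and come from RefSeq on GRCm38.p6, the assembly of the sequence table and not of the array, whose build was not given in the sources used here. Capitals mark TGTTTNC, a loose form of the forkhead core, where N is any base.
Gucy1a1, start 1, chr3:82145601-82145900, minus strand: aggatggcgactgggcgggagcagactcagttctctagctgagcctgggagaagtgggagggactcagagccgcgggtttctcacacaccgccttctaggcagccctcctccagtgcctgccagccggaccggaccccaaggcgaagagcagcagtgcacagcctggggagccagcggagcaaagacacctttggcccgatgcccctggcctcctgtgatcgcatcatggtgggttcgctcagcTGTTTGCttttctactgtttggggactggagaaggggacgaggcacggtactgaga
Gucy1a1, start 2, chr3:82145024-82145323, minus strand: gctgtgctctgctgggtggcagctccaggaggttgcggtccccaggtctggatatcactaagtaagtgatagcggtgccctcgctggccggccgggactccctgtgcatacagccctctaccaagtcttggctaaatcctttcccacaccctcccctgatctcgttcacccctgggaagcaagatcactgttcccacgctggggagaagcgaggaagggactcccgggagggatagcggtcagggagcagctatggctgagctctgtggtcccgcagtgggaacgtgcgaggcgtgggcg
Gucy1b1, chr3:82074662-82074961, minus strand: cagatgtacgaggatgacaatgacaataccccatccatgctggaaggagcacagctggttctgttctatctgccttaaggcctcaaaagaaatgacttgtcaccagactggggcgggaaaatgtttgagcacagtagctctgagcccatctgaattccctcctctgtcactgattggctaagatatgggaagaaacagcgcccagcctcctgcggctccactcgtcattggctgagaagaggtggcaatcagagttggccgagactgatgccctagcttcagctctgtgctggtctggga

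On both strands, TGTTTNC occurred once in these 3 windows, at the first Gucy1a1 start, with its first base at position -6. It was found in 20.5% of all 32841 promoter windows of the same length. The stricter core TGTTTAC, whose matches are all also matches of the loose form, was found in 0 of the 8 windows held for members and in 3.65% of all windows. The table held windows for 6 of the 8 members: Nos1, Gucy1a1, Gucy1a2, Gucy1b1, Prkg1 and Pde5a. A match of these letters is a description of the window and not evidence of binding.

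Between the genotypes, the soluble cyclase subunits alpha-1 and beta-1 were the 2 members with the widest differences, both lower in cKO, while the other 6 members differed by 0.018 to 0.059 log2 units in absolute size. Gucy1a1 was the 1 of 8 members past a limma adjusted p of 0.05, against 0.728% of all probe sets in either direction and 0.429% among those lower in cKO. Nothing is read from that count, because the members were proposed with this comparison in view. The median difference of the 8 was -0.023, beside -0.00077 over all probe sets.

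Gucy1a1, the alpha-1 subunit, was measured in WT replicates 1 to 6 at 11.19, 11.45, 11.53, 11.48, 11.31 and 11.58. The cKO replicates 1 to 6 read 11.13, 11.05, 11.05, 11.08, 10.96 and 11.00. All 6 cKO arrays lay below the lowest WT array, with WT replicate 1 the lowest of its group and cKO replicate 1 the highest of its own. Non-overlap of this kind was found in 1 of the 8 members and in 1.38% of all probe sets. The WT mean was 11.42 ± 0.15 (SD, n = 6) and the cKO mean 11.05 ± 0.06 (SD, n = 6), so that Gucy1a1 fell by 0.38 ± 0.06 (SE) log2 units, which is 1.30-fold. Of the 109 probe sets that were lower past the threshold, 43 fell further, and the median of all 109 was -0.32. Without cKO replicate 1 the difference was -0.39. It was -0.31 without WT replicates 3 and 6 together, -0.36 after adjusting for the mean of 3 cortical genes and -0.38 with a block for the replicate number, and under these 3 settings Gucy1a1 was not among the probe sets past the threshold.

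Gucy1b1 encodes the beta-1 subunit, without which the alpha subunits make no active enzyme. Its WT replicates 1 to 6 read 10.48, 10.62, 10.96, 10.77, 10.56 and 10.65, and the cKO replicates 10.48, 10.37, 10.42, 10.42, 10.39 and 10.45. Here 5 of 6 cKO arrays lay below every WT array, and cKO replicate 1 was level with WT replicate 1. The WT mean was 10.67 ± 0.17 (SD, n = 6) and the cKO mean 10.42 ± 0.04 (SD, n = 6). The difference was -0.25 ± 0.07 (SE), or 1.19-fold, and it was not past the threshold over all probe sets. Without cKO replicate 1 it was -0.26. It was -0.19 both without WT replicate 3, the highest array, and without WT replicates 3 and 6 together.

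Gucy1a2, the alternative alpha-2 subunit, differed little. Its WT arrays had a lowest value of 7.05, a median of 7.12 and a highest of 7.21, and its cKO arrays 7.02, 7.09 and 7.16. The ranges overlapped, with 4 of 6 cKO arrays inside the WT range. The difference was -0.03 ± 0.03 (SE). Leaving out 1 array moved it between -0.048 and -0.016, the smallest being without WT replicate 1.

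**Figure D1:**
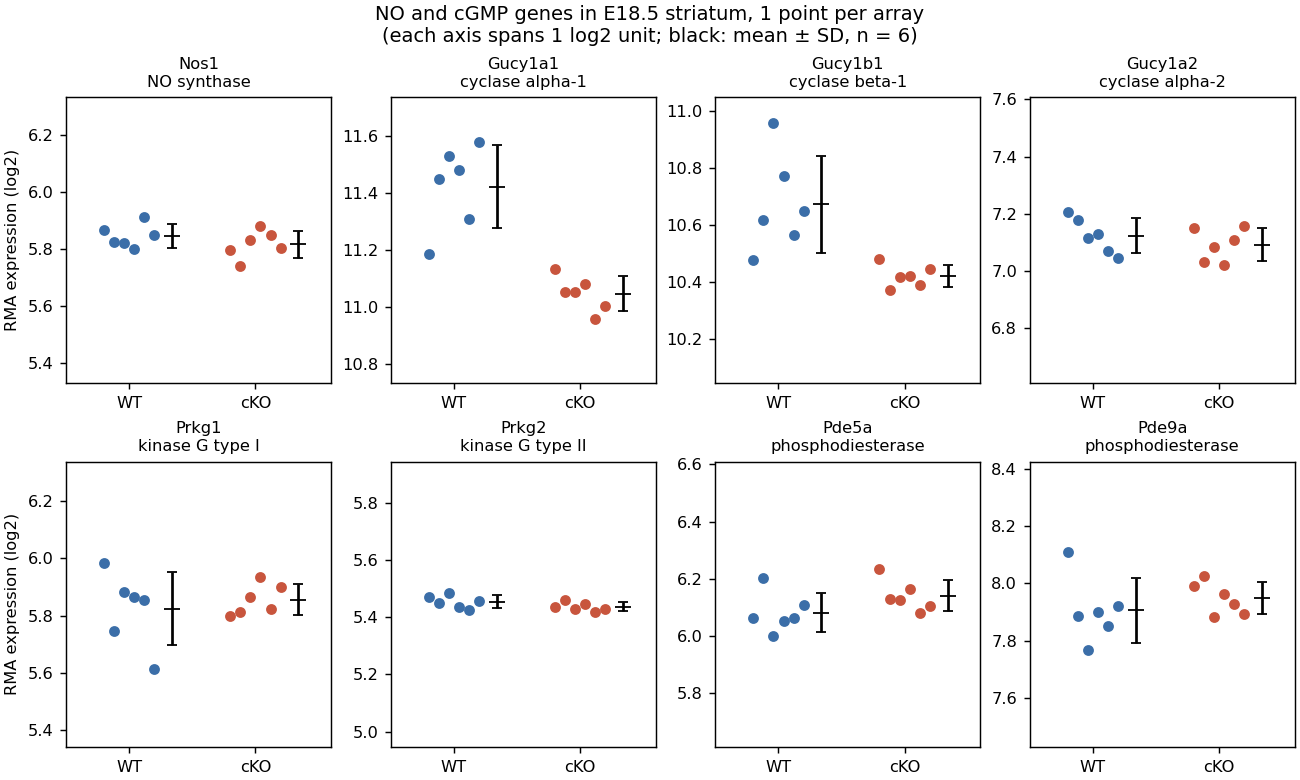
RMA log2 expression of the 8 genes, 1 point per array in replicate order from left to right, with the mean ± SD (n = 6) in black; every vertical axis spans 1 log2 unit. Gucy1a1 shows 6 cKO points below all WT points, Gucy1b1 shows 5, and the remaining genes overlap.

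The synthase stood near the lower end of the scale. Nos1 had a lowest value of 5.80, a median of 5.84 and a highest of 5.91 among the WT arrays, and 5.74, 5.82 and 5.88 among the cKO arrays. On average it lay 0.12 above the median of all values. Its difference was -0.03 ± 0.02 (SE), and the ranges overlapped. It was -0.014 without cKO replicate 2 and -0.016 without WT replicate 5. A change in so dim a probe set may be understated. Of the 8 markers fixed for the interneurons that make the synthase, 0 passed the limma threshold and 1 had an unadjusted p below 0.05, lower in cKO, and the list had a median difference of 0.025. Over all 25428 probe sets, 2729 had an unadjusted p below 0.05 in the same fit. The interneuron list mean of each array was 7.98 to 8.09 for WT and 8.03 to 8.10 for cKO. Chodl, a defining marker of these cells, lay near the median of all values, with a WT mean of 5.67 and a cKO mean of 5.71. Somatostatin (Sst) averaged 11.62 ± 0.14 (SD, n = 6) on WT arrays and 11.77 ± 0.18 (SD, n = 6) on cKO arrays. For neuropeptide Y (Npy) the means were 10.04 ± 0.25 and 10.05 ± 0.17. The marker with the smallest p was Tacr1, the substance P receptor, at -0.13 ± 0.03 (SE; limma adjusted p = 0.0779).

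For both kinases the genotypes overlapped. Prkg1, the type I kinase, which is also abundant in vascular smooth muscle, had a lowest WT array of 5.61, a median of 5.86 and a highest of 5.98, against 5.80, 5.84 and 5.94 for cKO. All 6 cKO arrays lay inside the WT range. Its difference of 0.03 ± 0.05 (SE) became -0.0096 without WT replicate 6, the lowest array. Prkg2, the membrane-bound type II kinase, lay at -0.27 relative to the median of all values. Its WT arrays spanned 5.42 to 5.49 with a median of 5.45, and its cKO arrays 5.42 to 5.46 with a median of 5.43. Its difference was -0.02 ± 0.01 (SE), and -0.011 without WT replicate 3. For 11 mural cell markers, from cells that use the type I kinase, 0 passed the limma threshold. An unadjusted p below 0.05 was found for 1 higher and 2 lower genes, beside 2729 of all 25428 probe sets. The list mean of each array was 6.44 to 6.50 for WT and 6.45 to 6.52 for cKO.

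The cGMP phosphodiesterases among the members had small positive differences. Pde5a, a cGMP-specific enzyme and the target of sildenafil, had WT values of 6.00 at the lowest, 6.06 at the median and 6.20 at the highest. The cKO values were 6.08, 6.13 and 6.23, a difference of 0.06 ± 0.03 (SE). Pde9a, which has a high affinity for cGMP, read 7.77, 7.89 and 8.11 at the same points among WT arrays and 7.88, 7.95 and 8.03 among cKO arrays, a difference of 0.04 ± 0.05 (SE). Single arrays moved the value of Pde9a, to 0.083 without WT replicate 1, 0.014 without WT replicate 3 and 0.026 without cKO replicate 2. The ranges overlapped for both genes, with 5 of 6 cKO arrays inside the WT range for Pde5a and 6 of 6 for Pde9a. Neither was past the threshold.

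**Figure D2:**
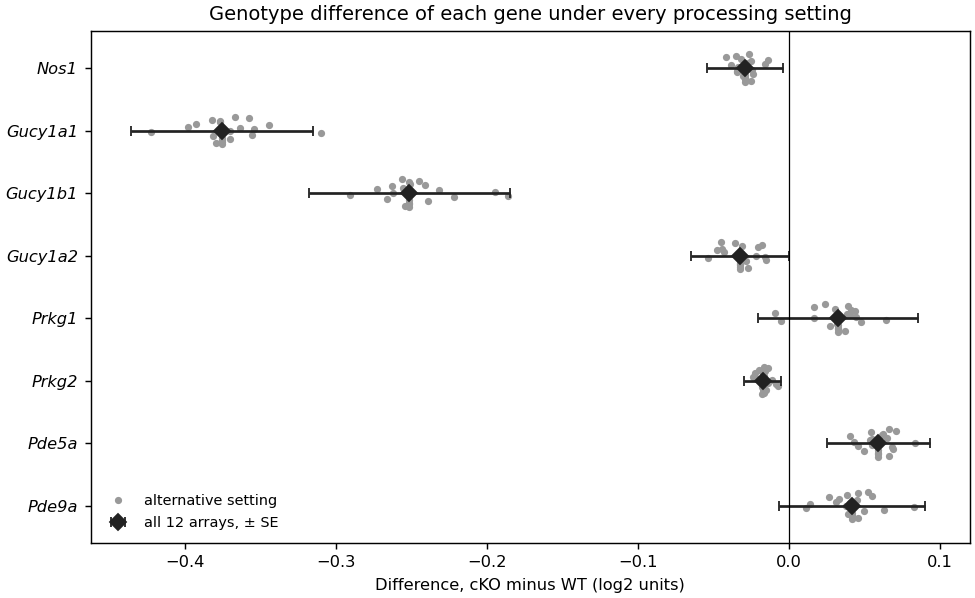
Difference between cKO and WT for each gene in log2 units, as black diamonds with SE from all 12 arrays and as grey points under each of 21 alternative settings (20 for Prkg2). Gucy1a1 stays between -0.42 and -0.31 and Gucy1b1 between -0.29 and -0.19, while Prkg1 has values on both sides of 0.

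Arrays of a genotype differed among themselves more in WT than in cKO for several members. The WT SD was 4.30 times the cKO SD for Gucy1b1, 2.42 times for Gucy1a1, 2.37 times for Prkg1 and 2.03 times for Pde9a, and it was the larger in 7 of 8 members, Nos1 being the exception (0.844). Over all probe sets the median ratio was 1.13, and WT had the larger SD in 59.7%. A ratio of at least 4.30 was found in 0.885% of probe sets, and one of at least 2.42 in 7.49%. These ratios were not tested.

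The spread within a genotype did not enter the choice of the members, so relations between them could be tested on deviations from the group mean. Among the 28 pairs of members, r over 12 arrays ran from -0.68 to 0.69, and 0 pairs passed a permutation test, adjusted or unadjusted. The highest was that of the subunits Gucy1a1 and Gucy1b1, with r = 0.69 (two-sided permutation p = 0.0726, adjusted p = 0.793 over 28 pairs) and rho = 0.67 (permutation p = 0.0518, adjusted p = 0.817). Within WT alone r was 0.72 (exact permutation p = 0.107) and within cKO 0.55 (exact permutation p = 0.264). Without the 2 arrays farthest from the median of Gucy1a1 it was 0.73. The negative value of Gucy1b1 with Pde9a (r = -0.68, permutation p = 0.0849, adjusted p = 0.793; rho = -0.29, permutation p = 0.402, adjusted p = 0.888) rested on such extreme arrays, since r was 0.14 without 2 of them. Within cKO alone, Gucy1a1 and Pde5a had r = 0.95 (exact permutation p = 0.00417, adjusted p = 0.117), against r = 0.087 within WT (exact permutation p = 0.864).

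With the arrays of both genotypes pooled, deviations of both subunits from the group mean rose with those of projection neuron markers. The mean of the 13 measured markers, a list without cyclase genes, was set against each subunit in a comparison chosen after the data were seen. Of the 8 cell type lists, only this one, the cortical list and the mural list were set against the subunits. The others were not compared with them. The adjustment covers those relations alone. For Gucy1a1, r was 0.77 (two-sided permutation p = 0.0112, adjusted p = 0.0336 over 6 relations) and rho 0.77 (permutation p = 0.0137, adjusted p = 0.0411). For Gucy1b1, r was 0.80 (permutation p = 0.00339, adjusted p = 0.0203) and rho 0.84 (permutation p = 0.00438, adjusted p = 0.0263). Without the 2 arrays farthest from each gene's median, r was 0.78 and 0.82. In WT alone r was 0.86 for Gucy1a1 (exact permutation p = 0.0389, adjusted p = 0.117) and 0.87 for Gucy1b1 (exact permutation p = 0.0236, adjusted p = 0.117). Within cKO it was 0.53 (exact permutation p = 0.301) and 0.71 (exact permutation p = 0.118), so neither genotype alone passed after adjustment. Leaving out cKO replicate 1, r was 0.76 for Gucy1a1 (unadjusted permutation p = 0.0239) and 0.79 for Gucy1b1 (unadjusted permutation p = 0.00756). The cortical and mural relations were not repeated without this array, so whether these values would pass the same adjustment was not tested.

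The other 4 relations did not pass. Against the mean of 7 cortical neuron markers r was -0.30 for Gucy1a1 (permutation p = 0.193, adjusted p = 0.232) and -0.28 for Gucy1b1 (permutation p = 0.157, adjusted p = 0.232). Against the 11 mural markers it was -0.49 (permutation p = 0.104, adjusted p = 0.208) and -0.11 (permutation p = 0.747, adjusted p = 0.747).

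**Figure D3:**
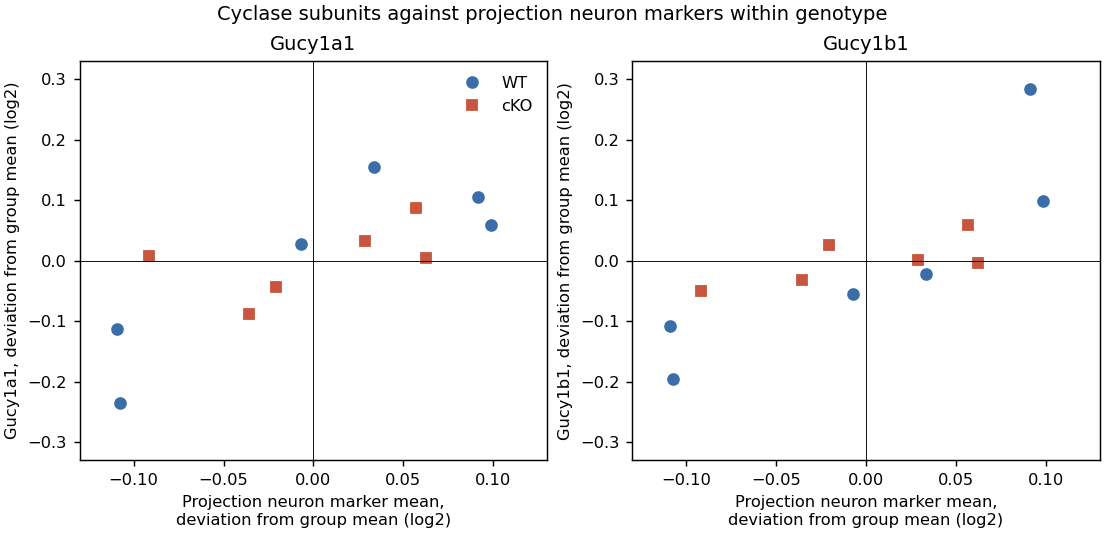
Deviation of Gucy1a1 (left) and Gucy1b1 (right) from the group mean against the deviation of the mean of 13 projection neuron markers, in log2 units, 1 point per array, WT as blue circles and cKO as red squares. Both panels rise from lower left to upper right (r = 0.77 and 0.80), and the WT points cover the wider range.

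Between genotypes the projection neuron markers themselves were mixed. Of 13 measured, 0 passed the limma threshold, and 6 had an unadjusted p below 0.05, 2 of them higher and 4 lower. Such a p was found for 2729 of all 25428 probe sets. The list had a median difference of 0.00092 and a difference of list means of -0.083, with 6 of 13 differences negative. Its mean in each array was 9.16 to 9.37 for WT and 9.09 to 9.25 for cKO. Tac1 differed by -0.55 ± 0.12 (SE; limma adjusted p = 0.0653). Ppp1r1b, which encodes DARPP-32, differed by -0.48 ± 0.11 (SE; limma adjusted p = 0.0718), whereas the enkephalin gene Penk differed by 0.38 ± 0.08 (limma adjusted p = 0.0501). In whole tissue, fewer cells of a type and less RNA per cell cannot be told apart. The list mean of 7 cortical markers was 6.05 to 6.44 on WT arrays and 6.01 to 6.76 on cKO arrays. The cKO arrays were split. Replicates 2, 4, 5 and 6 read 6.57, 6.57, 6.58 and 6.76, above every WT array, and replicates 1 and 3 read 6.10 and 6.01. Of the 7 cortical markers 0 passed the limma threshold, and 2 were higher at an unadjusted p below 0.05. All 7 differences were positive, with a median of 0.12 and a difference of list means of 0.21. For 6 progenitor markers the list mean was 9.19 to 9.63 on WT arrays and 9.37 to 9.69 on cKO arrays. Again 0 passed and 2 were higher unadjusted. All 6 differences were positive, with a median of 0.15 and a difference of list means of 0.17. Glial, endothelial and blood or choroid plexus markers had 0 genes past the threshold among 12, 7 and 5 measured, with 0, 1 and 0 below 0.05 unadjusted. Their part in the difference of Gucy1a1 was not tested beyond the covariate given above.

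Genes most like each member were sought by r of deviations over the 12 arrays, as a description, among 12286 other named probe sets above the median level. Closest to Gucy1a1 were Mcc (r = 0.94) and Chst15, a chondroitin sulfotransferase gene (0.93), and closest to Gucy1b1 were Strip2 (0.97) and Htr1b, a serotonin receptor gene (0.95). Gucy1b1 came at rank 212 for Gucy1a1, and Gucy1a1 at rank 350 for Gucy1b1. The closest for Nos1 were Mul1 (0.91) and Ece2 (0.85), for Gucy1a2 Cstf3 (0.90) and Slc39a2 (0.89), and for Prkg1 Ppfia2 (0.94) and Mir376b (0.93). For Pde5a they were Gatad1 (0.90) and Dnlz (0.90), and for Pde9a Gpr3 (0.87) and Zkscan8 (0.87). The highest of so many values from 12 arrays are large by selection.

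The chromosomal neighbours of the cyclase pair gave small differences. The 3 nearest protein-coding genes on each side, chosen after the data were seen, were all measured, and 0 of 6 passed the limma threshold, adjusted or unadjusted. Their differences ran from -0.013 to 0.049. Map9, next to Gucy1a1 and the one bright neighbour, averaged 10.01 ± 0.10 (SD, n = 6) on WT arrays and 10.01 ± 0.05 (SD, n = 6) on cKO arrays, a difference of 0.0092 ± 0.041 (SE; limma adjusted p = 0.964). The other neighbours, Ctso, Tdo2, Asic5, Npy2r and Rbm46, lay at -0.39 to 0.30 relative to the median of all values and were thus dim.

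Beyond the members, Pde10a was the one gene of the wider pathway to pass, on lists chosen with earlier results of these data known. Of 72 further genes on 4 lists, 68 were measured, and 1 passed, lower in cKO, which is 1.47% against the background of 0.728%. An unadjusted p below 0.05 was found for 3 higher and 6 lower genes, beside 2729 of all 25428 probe sets in either direction. The median difference of the 68 was -0.0099, and 50 of them lay less than 1 log2 unit above the median of all values or below it. The phosphodiesterase Pde10a, which hydrolyses cAMP and cGMP and is strongly enriched in striatal projection neurons, fell by 0.59 ± 0.09 (SE), or 1.50-fold (limma adjusted p = 0.00869), its WT mean being 9.63 ± 0.20 (SD, n = 6) and its cKO mean 9.04 ± 0.10 (SD, n = 6). Its arrays did not overlap, the lowest WT array being at 9.33 and the highest cKO array at 9.13. It passed in 19 of 21 alternatives, at -0.60 without cKO replicate 1 (limma adjusted p = 0.0201), and missed with the cortical level as a covariate (limma adjusted p = 0.0927).

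Among the other 13 cGMP phosphodiesterases measured, values after adjustment missed the threshold in both directions. The calcium-activated enzymes Pde1a and Pde1b, singled out after their values were seen, differed by 0.30 ± 0.10 (SE; limma adjusted p = 0.282) and -0.29 ± 0.09 (limma adjusted p = 0.234). Their ranges overlapped between genotypes. The list had a median of -0.0020.

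Of 21 genes of nitric oxide synthesis and its cofactors, 0 passed in limma, and the unadjusted p was below 0.05 for 2 higher genes and 1 lower gene, with a median difference of -0.030. The smallest p was that of Nos1ap, an adaptor of the neuronal synthase, at -0.19 ± 0.06 (SE; limma adjusted p = 0.207), followed by Nostrin, a trafficking protein of the endothelial synthase, at 0.05 ± 0.02 (limma adjusted p = 0.253). Of 16 other guanylyl cyclases, natriuretic peptides and their partners, 0 passed in limma, 0 had an unadjusted p below 0.05, and 15 lay less than 1 log2 unit above the median of all values or below it. Npr2, the receptor cyclase for C-type natriuretic peptide and the one brighter gene, differed by -0.11 ± 0.06 (SE; limma adjusted p = 0.526), and Gucy1b2, the beta-2 subunit, by 0.03 ± 0.02 (limma adjusted p = 0.579).

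Of 17 effectors and kinase G substrates 0 passed in limma, 2 had an unadjusted p below 0.05, both lower, and the median difference was -0.010. Hcn4, a channel regulated by cyclic nucleotides, differed by -0.19 ± 0.04 (SE, limma adjusted p = 0.0516). It passed in 5 of 21 alternatives, in which its limma adjusted p was as low as 0.0300. Its WT arrays spanned 6.52 to 6.72 and its cKO arrays 6.40 to 6.54. Ppp1r17, a kinase G substrate of Purkinje cells, differed by -0.04 ± 0.02 (limma adjusted p = 0.378).

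**Figure D4:**
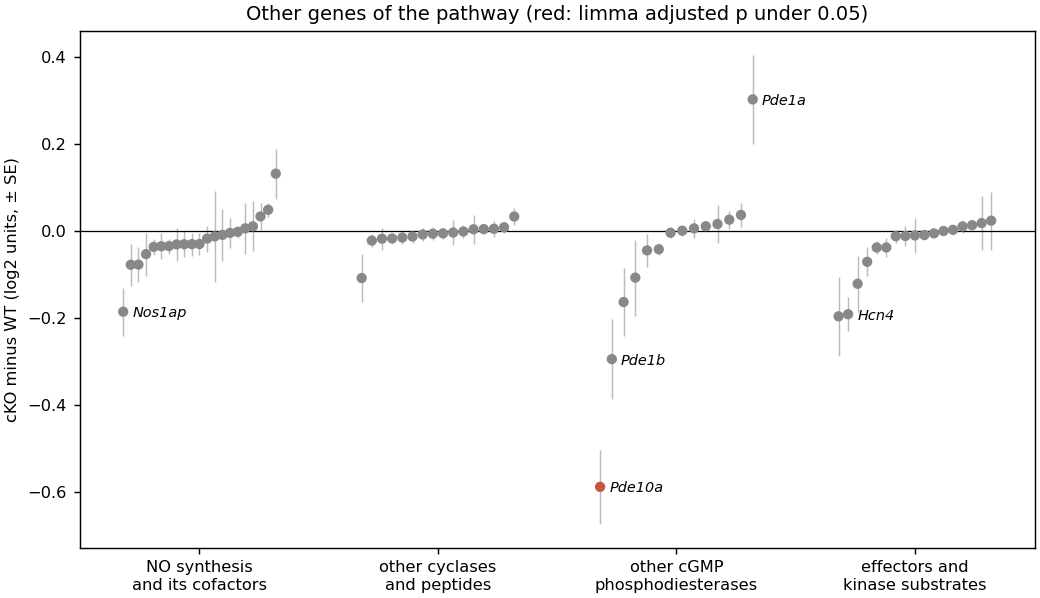
Difference between cKO and WT in log2 units, with SE, for the 68 measured genes of 4 wider pathway lists, ordered by size within each list. Pde10a is the 1 point past the limma adjusted p of 0.05 (red), and most other points lie close to 0.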

How the data were processed

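Total RNA of 12 striata, 6 per genotype, was measured on 1 array each. The deposited values are RMA log2 expression, per the submitters' processing notes, which give no version. The medians of the authors' columns lay between 5.7119 and 5.7124, so a change common to all genes would not show. For the array software, build and probe definition nothing is given in the sources used here. Precision is limited by the number of arrays.

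Symbols came from the platform annotation, updated by gene identifier in a RefSeq table of GRCm38.p6. Of 25428 probe sets 24674 were named, 1 gene each, and 754 were not. Irag1 and Irag2 were matched as Mrvi1 and Lrmp, their older names.

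Groups were compared over all probe sets by lmFit and eBayes of limma 3.58.1, under R 4.3.3, two-sided and with no covariates, with Benjamini-Hochberg adjustment and a threshold of 0.05. The fit was tested on simulated data. Relations within genotype used 100000 permutations of arrays within group, or all 720 orderings in a group of 6, in Python 3.11.15. The members and lists were chosen with earlier results of these data known. Named genes are the members, up to 4 genes past the threshold with the largest change per wider list (or the 2 with the smallest p), and the 2 most like each member above the median level. Alternatives were median centring, cyclic loess, a filter on dim probe sets, a robust prior with a trend, weights per array, a block for the replicate number, Y-linked and cortical covariates (3 genes each), WT replicates 3 and 6 left out, and each array left out. Of the listed genes, 4 wider pathway genes and 2 projection neuron, 2 cortical, 1 progenitor and 1 blood marker are not reported here.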

Additional observations from a re-analysis of the deposited data

Results flagged for a closer look

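Hcn4 in cKO replicate 4 read 6.54, while the other 5 cKO arrays ran from 6.40 to 6.43. The gap to the nearest array was 0.788 of the range of the group, above the 95% critical value of Dixon's test for 6 samples. Without this array the difference of Hcn4 was -0.21 (limma adjusted p = 0.0309), against -0.19 with it. This was 1 of 30 groups looked at, over 15 genes, and chance marks about 1 in 20. The cause was not tested. None of the 8 members had such an array in either genotype.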

How the results depend on the processing

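Member differences under the alternatives are a description, as the members were proposed with them known. Leaving out each array in turn gave -0.42 to -0.34 for Gucy1a1 and -0.29 to -0.19 for Gucy1b1, and 106 to 227 probe sets past the threshold against 185, with the count at 106, 117 and 109 without cKO replicate 2, 3 or 5. The count of members past it was 1 in each of these. The total was 278 with the 12714 brighter probe sets alone, 64 with the replicate block and 40 with the cortical level as a covariate. The count of members was 0 with the replicate block, with the cortical covariate and without WT replicates 3 and 6. Same-numbered arrays had correlations of deviations from -0.22 to 0.15. Differently numbered arrays were not set beside them, so these values cannot decide whether the numbers pair the embryos. The block also removed degrees of freedom. Wider pathway genes past the threshold numbered 2 with cyclic loess, with dim probe sets left out and with array weights, 0 with the replicate block and with the cortical covariate, and 1 to 2 when each array was left out, 2 without WT replicate 1 or 3 or cKO replicate 4. With the block Pde10a had a limma adjusted p of 0.0718. The pair count stayed at 0 of 28 with median centring and in each genotype alone. The cause of these shifts was not tested. Prkg2 could not be fitted among bright probe sets.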
